A study of Mus musculus with 5 samples.

Results

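The summits described here are those that 5 ChIP-Seq libraries placed outside chr1 to chr19, chrX and chrY of the mouse build mm10. They were chosen by the sequence name in each deposited list and by nothing else. In all, 528 of the 38651 summits lay on such sequences. PU.1 had 99 of 8947, BATF 78 of 4060, the Input 221 of 25194, goat Ig 67 of 226 and rabbit Ig 63 of 224. The build has 45 sequences of this kind, which were 22 random contigs, 22 unplaced contigs and chrM. They hold 5350404 bases, or 0.196% of the build with its gaps counted.

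All 5 libraries came from Wild-type C57/Bl6j mice aged 7 weeks. Naive CD4 T cells from spleen and nodes were differentiated towards Th9 cells, the helper T cells known for IL-9, on plates coated with CD3/CD28 antibodies. The medium held IL-4 at 20 ng/ml, TGF-β at 2 ng/ml and an antibody that blocks IFNγ, and the labels give the duration only as a few hours. By the labels, chromatin was prepared from 300000 cells. The study's methods and legends differ from these labels, with more cells and a day of differentiation. The chromatin was precipitated with an antibody to PU.1 or to BATF, transcription factors that take part in the Th9 program, or with goat or rabbit immunoglobulin (Ig) as a control for unspecific capture. The Input is sheared chromatin that was not precipitated. Each group is 1 library, so no test between libraries was possible, and how many mice were pooled is not given in the sources used here. The lists hold summit positions and scores and no expression values, so the T cell label could not be checked against marker genes. They also give no read totals, so the depth of the libraries is unknown. Intervals below are exact 95% Clopper-Pearson intervals. The share that a count of 0 allows is taken as 3 counts of the total. Both cover counting error only.

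A random contig is a stretch that the assembly assigns to a chromosome without a place on it, and an unplaced contig has no chromosome at all. Both are rich in repeats, because repeats are what an assembly cannot order. The mouse major satellite is a tandem repeat that fills the pericentromeric heterochromatin of most mouse chromosomes, and assemblies hold only a small part of it. The mitochondrial genome, chrM, carries no nuclear chromatin and is present in many copies in each cell. In a ChIP-Seq experiment such sequences can draw many reads in any library, and an Input and an Ig library show how much of a signal comes without the specific antibody.

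The repeat step met most often around these summits was 234 bp, the length known for the unit of the major satellite. It is called a satellite here from its step and length alone, since no repeat annotation was used. It gave the best match of a base with the base before it at 64 of the 528 summits, the largest count of any step of 10 bp or more. It is shown first because most of the results below turn on it. It was read from GRCm38.p6, whose sequences have the same lengths as those of mm10, around the Input summit whose bases most often equalled the base 234 bp before them (99.0% of 200). Capitals mark the 8-base word of this unit that was found in most satellite windows. That word, CTCATTTT, was in 323 of the 328 different satellite windows of 200 bp around a summit, in 652 of 693 satellite windows tiled along the sequences, and in 3.85% of all 26308 tiled windows. The word was chosen by its count in satellite windows, so its high count there is no separate result. The unit is not typical of all satellite windows. Around the 343 satellite summits the median match was 38.5% at 234 bp and 55% at 58 bp. Median identity to the unit was 79.9%, and 60.1% of these windows had no further copy in the build. Windows on chrUn_JH584304, the source of the unit, had a median of 363 copies, and those on each other satellite contig 1.
satellite unit, chrUn_JH584304:75814-76047, plus strand: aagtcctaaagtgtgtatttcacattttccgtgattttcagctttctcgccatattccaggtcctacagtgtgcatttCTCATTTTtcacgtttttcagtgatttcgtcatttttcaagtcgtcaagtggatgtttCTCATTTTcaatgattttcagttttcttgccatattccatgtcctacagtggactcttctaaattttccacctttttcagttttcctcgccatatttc

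From the places where all 5 libraries had a summit, the one with the highest Input score was taken on each sequence, and 120 bases centred on the Input summit are printed for 8 sequences in the order of that score. They show how far the satellite varies from contig to contig. Windows that matched the unit on the opposite strand are given as the minus strand, so that all satellite windows read the same way. Capitals mark CTCATTTT where the window has it, and the window of chrUn_GL456396 has none. On chrUn_GL456370 they mark TTTTCTGA, the most frequent word of a different repeat with a unit of 31 bp.
chr4_GL456216_random:49190-49309, plus strand: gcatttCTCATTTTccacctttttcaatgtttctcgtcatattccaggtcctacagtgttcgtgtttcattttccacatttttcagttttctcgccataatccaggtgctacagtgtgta
chrUn_GL456396:20926-21045, minus strand: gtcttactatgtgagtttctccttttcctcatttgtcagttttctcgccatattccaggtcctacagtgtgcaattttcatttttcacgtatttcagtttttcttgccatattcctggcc
chrUn_GL456370:29-148, plus strand: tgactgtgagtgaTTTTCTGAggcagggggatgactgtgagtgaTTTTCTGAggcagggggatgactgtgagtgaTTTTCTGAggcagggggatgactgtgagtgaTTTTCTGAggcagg
chrUn_GL456389:10599-10718, plus strand: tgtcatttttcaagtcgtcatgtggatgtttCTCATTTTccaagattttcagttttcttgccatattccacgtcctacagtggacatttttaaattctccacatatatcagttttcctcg
chrUn_GL456392:713-832, minus strand: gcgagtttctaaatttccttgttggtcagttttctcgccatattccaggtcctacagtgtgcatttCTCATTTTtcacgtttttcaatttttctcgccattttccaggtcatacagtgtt
chrUn_GL456383:11322-11441, plus strand: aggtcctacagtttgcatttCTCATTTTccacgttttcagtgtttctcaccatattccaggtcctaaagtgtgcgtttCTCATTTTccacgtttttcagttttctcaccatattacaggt
chrUn_JH584304:60627-60746, minus strand: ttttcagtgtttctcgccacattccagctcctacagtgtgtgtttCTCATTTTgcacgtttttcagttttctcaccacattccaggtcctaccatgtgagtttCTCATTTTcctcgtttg
chrUn_GL456390:24053-24172, minus strand: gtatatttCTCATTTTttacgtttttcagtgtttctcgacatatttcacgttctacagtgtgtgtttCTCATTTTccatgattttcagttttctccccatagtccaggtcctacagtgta

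A repeat of 21 bp was met, among the members, around Input summits alone. It was sought among the 169 members left after the satellite and 31 bp matches, and its unit was read around an Input summit. Most of the 169 were Input members and none was an Ig member. The absence of Ig from this repeat was thus nearly fixed in advance. A window of the 21 bp repeat is shown for comparison, with its most frequent word in capitals.
21 bp repeat, chrUn_GL456381:11689-11808, plus strand: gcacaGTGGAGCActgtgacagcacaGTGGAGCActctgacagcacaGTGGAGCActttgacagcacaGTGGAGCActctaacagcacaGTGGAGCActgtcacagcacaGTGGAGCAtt

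Outside the chromosomes the share of summits was above the share of bases in every list, and most so in the Ig lists. Goat Ig had 29.6% of its summits there (interval 23.8 to 36.1) and rabbit Ig 28.1% (22.3 to 34.5). BATF had 1.92% (1.52 to 2.39), PU.1 1.11% (0.900 to 1.35) and the Input 0.877% (0.766 to 1.00). Relative to the 0.196% of the build, these shares were 151 and 144 times as high for goat and rabbit Ig, 9.81 times for BATF, 5.65 times for PU.1 and 4.48 times for the Input. These folds depend on the weak summits in a list. Among summits with a score of at least 10 the shares were 13.5% for PU.1, 15% for BATF, 5.76% for the Input, 38.1% for goat Ig and 38.4% for rabbit Ig. Over the whole lists, the intervals of the Ig libraries did not overlap those of the other libraries, while the intervals of PU.1 and the Input did. The lists differ greatly in length, and depth, list length and antibody cannot be told apart here.

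Summits on these sequences stood near the top of the PU.1, BATF and Input lists. The deposited score is not defined in the sources used here, so it is read only within a list. PU.1 had a median score of 18.5 off the chromosomes and 4.13 on them. For BATF the medians were 25.7 and 4.74, and for the Input 10.5 and 4.07. Among PU.1 members 70.7% were in the highest 10% of their list, among BATF members 76.9% and among Input members 54.3%. Goat Ig had medians of 14.2 off and 8.08 on the chromosomes, rabbit Ig of 17.7 and 7.56, but only 5.97% and 9.52% of their members were in the highest 10%. Single members ranked 4th in PU.1 and goat Ig, 5th in rabbit Ig, 6th in the Input and 7th in BATF.

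The summits gathered on few sequences. Of the 45 sequences, 33 had a summit and 12 had none in any library. The 12 empty ones were 8 random and 4 unplaced contigs of 1976 to 259875 bases and make up 25% of the non-chromosomal bases. On 9 sequences all 5 libraries had a summit. These 9 hold 7.49% of the bases but all 67 goat Ig and all 63 rabbit Ig members, 68 of 78 BATF members (87.2%), 73 of 99 PU.1 members (73.7%) and 121 of 221 Input members (54.8%). On 14 further sequences only the Input had summits, 43 in all, with a score of at most 29.9.

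**Figure D1:**
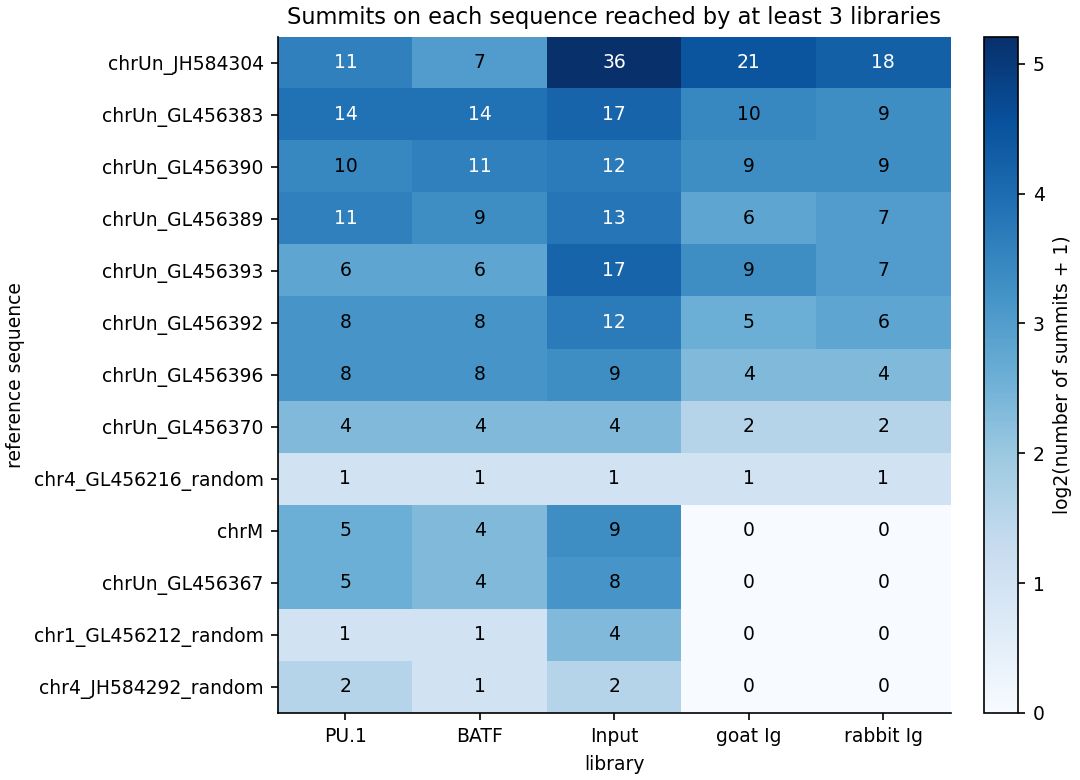
Number of summits (printed in each cell, colour as log2 of the number + 1) on the 13 sequences that at least 3 libraries reached, by library. The 9 upper sequences hold every Ig summit outside the chromosomes, and on chrUn_JH584304 and chrUn_GL456393 both Ig libraries had more summits than PU.1 and BATF.

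Satellite contigs carried most of these counts. On chrUn_GL456383 there were 14 summits of PU.1, 14 of BATF, 17 of the Input, 10 of goat Ig and 9 of rabbit Ig, on chrUn_GL456390 10, 11, 12, 9 and 9 in the same order, and on chrUn_GL456389 11, 9, 13, 6 and 7. On chrUn_GL456392 the counts were 8, 8, 12, 5 and 6, and on chrUn_GL456396 8, 8, 9, 4 and 4. On each of these 5 contigs the Input had the most summits and an Ig library the fewest, in whole lists of 25194 Input, 226 goat Ig and 224 rabbit Ig summits. chrUn_GL456393 had 17 Input summits, 9 of goat Ig, 7 of rabbit Ig and 6 each of PU.1 and BATF. chrUn_GL456370, which holds the 31 bp repeat, had 4, 4, 4, 2 and 2.

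4 sequences had PU.1, BATF and Input summits and no Ig summit, in Ig lists of 226 and 224 summits. chrUn_GL456367 held 5 PU.1 summits with a highest score of 9.56, 4 BATF summits up to 7.18 and 8 Input summits up to 26.3. chr4_JH584292_random, which carries the vomeronasal receptor gene Vmn2r122, had 2, 1 and 2 summits, the Input ones up to 21.6. chr1_GL456212_random had 1, 1 and 4, and chrM had 5, 4 and 9. The highest Input score on these 4 sequences was 33.8, on chrM, whereas it was 181 on the satellite contig chrUn_GL456396 and 178 on chrUn_GL456389.

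Most members of the 4 antibody lists lay in the satellite. A 200 bp window around a summit was counted as satellite when a BLAST alignment to the unit above reached a bit score of 60. By that measure 65 of 67 goat Ig members (97.0%, interval 89.6 to 99.6) and 61 of 63 rabbit Ig members (96.8%, 89.0 to 99.6) were satellite. BATF had 63 of 78 (80.8%, 70.3 to 88.8), PU.1 64 of 99 (64.6%, 54.4 to 74.0) and the Input 90 of 221 (40.7%, 34.2 to 47.5). Of all windows tiled along the same sequences 693 of 26308, or 2.63%, were satellite. The 4 Ig members that were not satellite lay in the 31 bp repeat of chrUn_GL456370, so that all 130 Ig members were in one of these repeats.

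The same satellite was rare among summits on the chromosomes of PU.1 (39 of 8848, 0.441%), BATF (40 of 3982, 1.00%) and the Input (52 of 24973, 0.208%). It made up 49 of 159 goat Ig summits (30.8%, interval 23.7 to 38.6) and 40 of 161 rabbit Ig summits (24.8%, 18.4 to 32.3) there. Over the whole list it came to 50.4% of goat Ig and 45.1% of rabbit Ig, against 1.15% of PU.1, 2.54% of BATF and 0.564% of the Input. In numbers there were 103 satellite summits each in PU.1 and BATF, 114 in goat Ig, 101 in rabbit Ig and 142 in the Input, from lists of very different length.

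**Figure D2:**
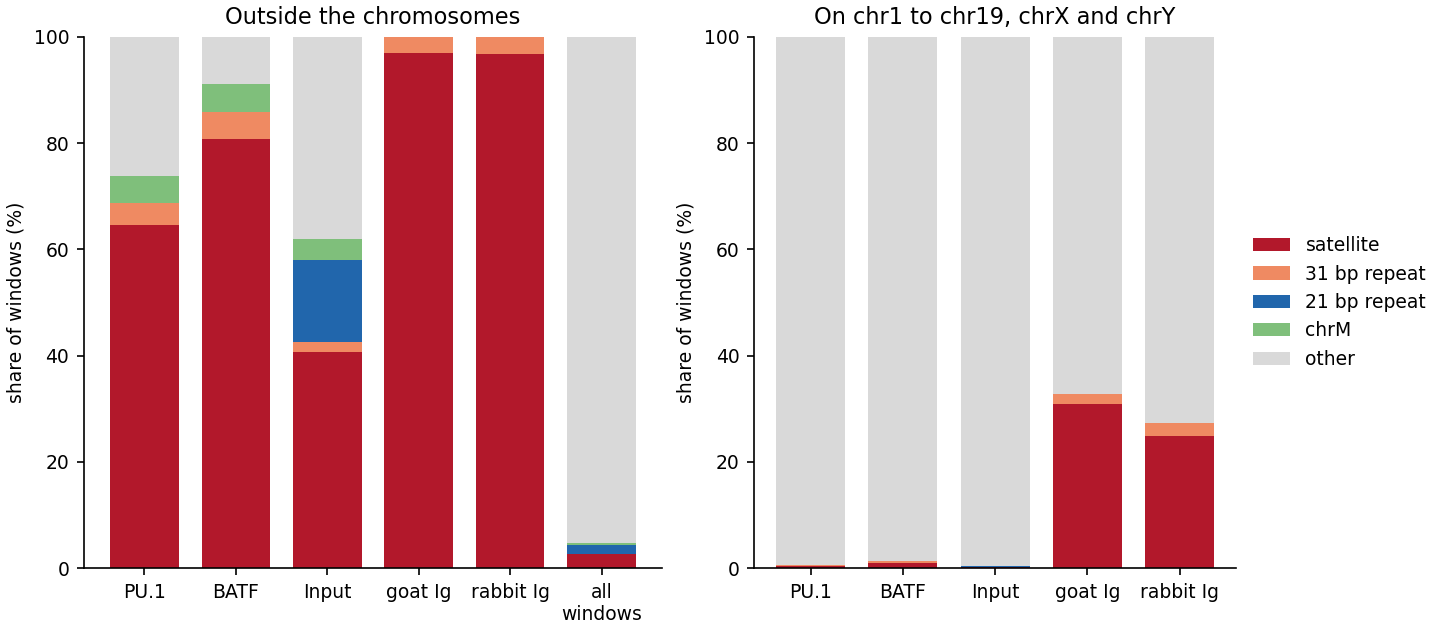
Share of 200 bp windows around summits (%) in each repeat class, outside the chromosomes (left, with all tiled windows of the same sequences as the last bar) and on them (right), for the 5 libraries. The satellite fills 97.0% and 96.8% of the Ig bars on the left and 2.63% of all windows, and among the 5 library bars on the left the 21 bp repeat is in that of the Input alone. That repeat was sought among members outside the other repeats, most of them of the Input.

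Around the satellite summits the bases repeated at sub-unit steps as well. The median share of bases equal to the base 58 bp before was 55%, at 117 bp 47.5% and at 234 bp 38.5%. Windows of summits outside chrM in no repeat class had 31%, 29.5% and 28%. Median identity to the printed unit along the aligned stretch was 79.9%. GC content had a median of 37.0% in PU.1, BATF, goat Ig and rabbit Ig members and 37.5% in the Input, against 41.5% over all tiled windows. At least 50% of the bases were soft-masked as repeats in 98.5% of goat Ig and 98.4% of rabbit Ig windows, in 87.9% of PU.1, 85.9% of BATF and 85.5% of Input windows, and in 53.9% of tiled windows.

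The windows were searched for motifs known for PU.1 and BATF. In no library was the share around summits shown to differ from that of all tiled windows. PU.1 belongs to the ETS family and is known to bind GAGGAAGT, which was searched on both strands. It was in 0 of 99 PU.1 windows, which allows a share of up to 3.03%, in 0 of 78 BATF windows (up to 3.85%), in 1 of 221 Input windows (0.452%, interval 0.0115 to 2.50), in 0 of 67 goat Ig (up to 4.48%) and 0 of 63 rabbit Ig windows (up to 4.76%), and in 1.4% of all tiled windows. The AP-1 motif TGACTCA, whose other strand reads TGAGTCA and which BATF binds with JUN partners, was in 1 of 78 BATF windows (1.28%, interval 0.0325 to 6.94), 1 of 99 PU.1 windows (1.01%, 0.0256 to 5.50), 3 of 221 Input windows (1.36%, 0.281 to 3.92), no Ig window and 2.73% of tiled windows. The tile shares lie within each of these intervals or limits. Of the satellite tiles 0 of 693 had the PU.1 motif (up to 0.433%) and 5 had the AP-1 motif (0.722%, interval 0.235 to 1.68). Both lay below the shares of all tiles. These are descriptions of letters in a window and say nothing about other forms of the motifs.

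The 21 bp repeat was met in the Input. Of the Input members 34 of 221 (15.4%, interval 10.9 to 20.8) lay in it, on chrUn_GL456239, chrUn_GL456381, chrUn_GL456387, chrUn_GL456393 and chrUn_GL456394. None of the 307 members of the 4 antibody lists did, which for Ig was nearly fixed by how the repeat was sought, among members outside the other repeats. The count of 0 allows up to 3.03% of PU.1, 3.85% of BATF, 4.48% of goat Ig and 4.76% of rabbit Ig members. Of all tiled windows 442 of 26308, or 1.68%, were in the repeat, which is below each of these limits, so 0 in a list is not shown to differ from the tiles. On the chromosomes, the repeat was at 49 Input summits (0.196%, interval 0.145 to 0.259), 2 PU.1 summits (0.0226%, 0.00274 to 0.0816) and 2 BATF summits (0.0502%, 0.00608 to 0.181). It was at 0 of 159 goat Ig and 0 of 161 rabbit Ig summits there, which allows up to 1.89% and 1.86%.

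Input scores in the 21 bp repeat were lower than in the satellite, with medians of 6.92 and 23.6. Input summits of like score are set side by side here as a description. No antibody member lay in the 21 bp repeat, so a count of 0 near its Input summits was nearly fixed in advance. Such a count is no separate result and does not show what part the score played. Of 12 with a score of 10 to 40 in the 21 bp repeat, 0 had a PU.1, BATF or Ig summit within 500 bp, which allows up to 25%. In the same score range the satellite had 38, of which 30 had a PU.1 summit (78.9%), 29 a BATF summit (76.3%), 19 a goat Ig summit (50%) and 21 a rabbit Ig summit (55.3%) that close. Below a score of 10 the counts were 0 of 22 in the 21 bp repeat (up to 13.6%) and 10, 9, 14 and 14 of 28 in the satellite.

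chrUn_GL456393 holds both repeats. No antibody member lay in the 21 bp repeat on any contig, so the positions of the antibody summits here restate that count. They are given as a description only. The satellite of this contig lies at positions 1 to 2400 and 5001 to 10600, and its 21 bp repeat in 3 tracts from 10601 to 55600. All 6 PU.1, 6 BATF, 9 goat Ig and 7 rabbit Ig summits were in the satellite. The Input had 6 summits in the satellite and 11 in the 21 bp repeat.

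Whether the libraries met at the same spots was described by distance. Outside the chromosomes, 82 of 99 PU.1 summits (82.8%, interval 73.9 to 89.7) lay within 500 bp of an Input summit, beside 31.7% of the whole PU.1 list. For BATF it was 67 of 78 (85.9%, 76.2 to 92.7) beside 31.9%. Goat Ig had 62 of 67 (92.5%, 83.4 to 97.5) beside 75.2%, and rabbit Ig 61 of 63 (96.8%, 89.0 to 99.6) beside 81.7%. On the chromosomes alone the shares were 31.1% for PU.1, 30.9% for BATF, 67.9% for goat Ig and 75.8% for rabbit Ig, and in each library the interval lay below that of its members. For both Ig libraries this depended on the distance. At 100 bp, 76.1% of goat Ig members and 59.7% of goat Ig summits on the chromosomes were near the Input, and 79.4% and 67.1% of rabbit Ig, and the intervals overlapped. Summits are dense on the satellite contigs, with 5.45 Input summits per 10 kb on chrUn_GL456383 and 9.13 on chrUn_GL456390. Many bases there lie within 500 bp of one by position alone. The share that such density would give was not computed, for this or any other pair of libraries.

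PU.1 and BATF met each other, and so did both Ig libraries. BATF had 75 of 78 members (96.2%, 89.2 to 99.2) near a PU.1 summit, beside 48.7% of its whole list, and PU.1 73 of 99 (73.7%, 63.9 to 82.1) near a BATF summit, beside 22% of its list. Goat Ig had 64 of 67 (95.5%, 87.5 to 99.1) near rabbit Ig, beside 69.9%, and rabbit Ig 59 of 63 (93.7%, 84.5 to 98.2) near goat Ig, beside 68.3%. For both Ig libraries this depended on the weak summits. Above the median score of each list, 90.7% of goat Ig members and 80% of goat Ig summits on the chromosomes were near rabbit Ig. For rabbit Ig near goat Ig it was 93.0% and 79.7%, and in both cases the intervals overlapped. From the other side, 86 of 221 Input members (38.9%) were near a PU.1 summit, beside 11.6% of the whole Input list, and 61 (27.6%) near a rabbit Ig summit, beside 0.73%. Each pair was compared between single libraries, and members that lie in the same repeat are not independent of each other.

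Between a factor and an Ig library the shares depended on which list was counted. Of the PU.1 members 40 of 99 (40.4%, 30.7 to 50.7) were near a goat Ig summit, beside 1.59% of the whole PU.1 list, and 45 (45.5%, 35.4 to 55.8) near a rabbit Ig summit, beside 1.86%. Of the BATF members 42 of 78 (53.8%, 42.2 to 65.2) were near goat Ig, beside 3.62% of the BATF list, and 46 (59%, 47.3 to 70.0) near rabbit Ig, beside 4.16%. Counted from the Ig lists, the intervals of members and of summits on the chromosomes overlapped in each pair. Goat Ig had 47 of 67 members (70.1%, 57.7 to 80.7) near PU.1, beside 66.4% of its whole list, and as many near BATF, beside 67.3%. Rabbit Ig had 46 of 63 (73.0%, 60.3 to 83.4) near PU.1, beside 74.6%, and 47 (74.6%, 62.1 to 84.7) near BATF, beside 75.4%. On the chromosomes alone the Ig shares near PU.1 were 64.8% and 75.2% and those near BATF 66% and 75.8%, all within the intervals of the members.

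**Figure D3:**
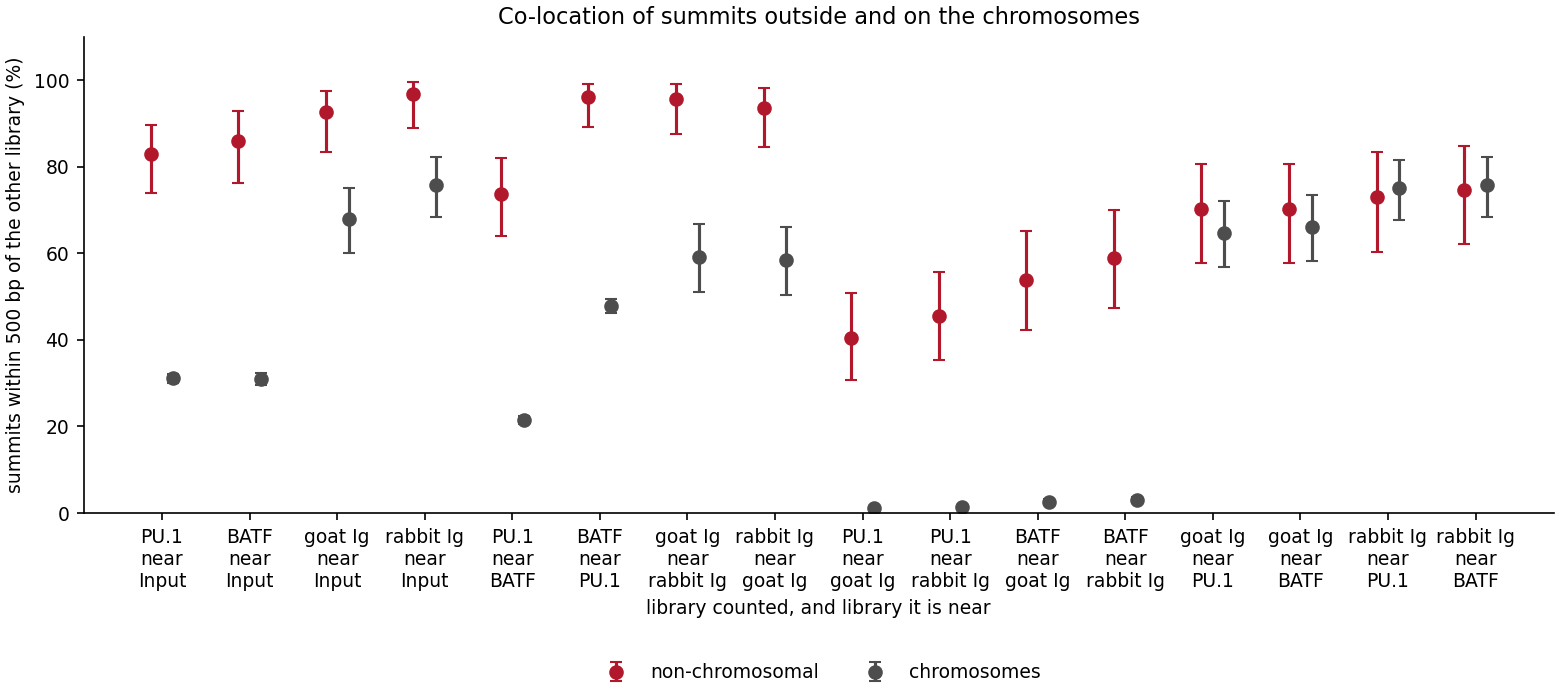
Share of summits (%) of one library within 500 bp of a summit of another, outside the chromosomes and on them, with exact 95% intervals as bars. In 12 of the 16 pairs the share outside the chromosomes is higher and the intervals are apart, as in 82.8% against 31.1% for PU.1 near the Input, and in the 4 pairs at the right, Ig near a factor, the intervals overlap. The density of summits on the short contigs was not taken into account.

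Median distances between co-located summits were shorter than on the chromosomes in some pairs and longer in others. BATF members lay 11.0 bp from PU.1, against 50 bp on the chromosomes. From the Input, goat Ig members lay 10.5 bp (19 on the chromosomes), rabbit Ig 15.0 bp (19), PU.1 37.5 bp (48) and BATF 40 bp (48). Goat Ig lay 14.5 bp from rabbit Ig (16). In the other direction, goat Ig members lay 39 bp from PU.1 (25) and 34 bp from BATF (24), and PU.1 members 30 bp from goat Ig (25). Rabbit Ig went both ways, with its members 17.5 bp from PU.1 (28) and 30 bp from BATF (28). PU.1 members lay 15 bp from rabbit Ig (28) and BATF members 29.5 bp (28). No interval was computed for these medians. Summits on the same base were few, with 3 between PU.1 and BATF, 2 between both Ig libraries and 1 between PU.1 and the Input, so the lists are not copies of one another.

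When summits of all libraries within 500 bp were joined, the 528 summits formed 219 places. Of these 38 held all 5 libraries, on 9 sequences, and 36 of the 38 were satellite while the other pair was the 31 bp repeat. A further 21 held PU.1, BATF and the Input without Ig, 14 held the Input and both Ig libraries without PU.1 and BATF, and 16 held PU.1 and the Input. The Input stood alone at 108 places, PU.1 at 8, BATF at 3 and an Ig library at none. Only 5 places were shared by PU.1 and BATF alone. No such count is given here for the chromosomes, so these numbers have no background beside them and describe the 219 places only.

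The place on chr4_GL456216_random was the highest shared place in PU.1, BATF and the Input. Its 5 summits lay at chr4_GL456216_random:49239-49283, the only summit each library had on this contig of 66673 bases. PU.1 scored 345 there, BATF 325, the Input 297, goat Ig 131 and rabbit Ig 168. It ranked 4th of 8947 in PU.1, 7th of 4060 in BATF, 6th of 25194 in the Input, 11th of 226 in goat Ig and 8th of 224 in rabbit Ig. Just 3 of the 320 tiled windows of this contig are satellite, and at 90% identity or more the window of the Input summit occurs once in the build and that of the PU.1 summit 2 times.

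Second to it among the shared places of PU.1 came chrUn_GL456389:24088-24344, where PU.1 scored 264, BATF 217, the Input 154, goat Ig 53.6 and rabbit Ig 68.0. On the same contig, the place at chrUn_GL456389:10631-10668 scored 208 in PU.1, 217 in BATF, 178 in the Input, 243 in goat Ig and 231 in rabbit Ig. It was the highest shared place in both Ig lists and the 4th in PU.1, BATF and the Input. The window of its Input summit has 205 copies in the build, 105 of them on chromosomes. chrUn_GL456392:22212-22738, with 355 copies counted the same way, was 2nd and 3rd in goat and rabbit Ig and 8th, 8th and 11th in PU.1, BATF and the Input.

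Satellite places with many copies stood higher in the order of the Ig lists than in that of the others, and those of the 31 bp repeat stood lower. The 5 shared satellite places with 10 or more copies had a median order among the 38 of 36 in PU.1, BATF and the Input, 22 in goat Ig and 27 in rabbit Ig. For the 31 shared satellite places with fewer copies the medians were 20, 20 and 20, and 18 and 19. Both 31 bp places, with 309 and 149 copies, took the orders 3 and 5 in the Input, 10 and 14 in PU.1, 11 and 19 in BATF, 20 and 35 in goat Ig and 18 and 33 in rabbit Ig. Apart from those named on chrUn_GL456389 and chrUn_GL456392, the satellite places with 10 or more copies lie in a single tract of chrUn_JH584304. Copy number and that tract cannot be told apart here. How reads that fit several copies were placed is not given in the sources used here, and the part of this in the scores was not tested.

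Across the 38 shared places the scores of the libraries rose and fell together. Spearman's rho was 0.969 between PU.1 and BATF, 0.939 between PU.1 and the Input, 0.905 between BATF and the Input, and 0.913 between both Ig libraries. Between the Input and goat Ig it was 0.694 and between the Input and rabbit Ig 0.746. PU.1 had 0.767 with goat Ig and 0.80 with rabbit Ig. These values describe 38 places, 36 in the satellite and 2 in the 31 bp repeat, in chromatin from cells with the same labels. No test was made on them.

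**Figure D4:**
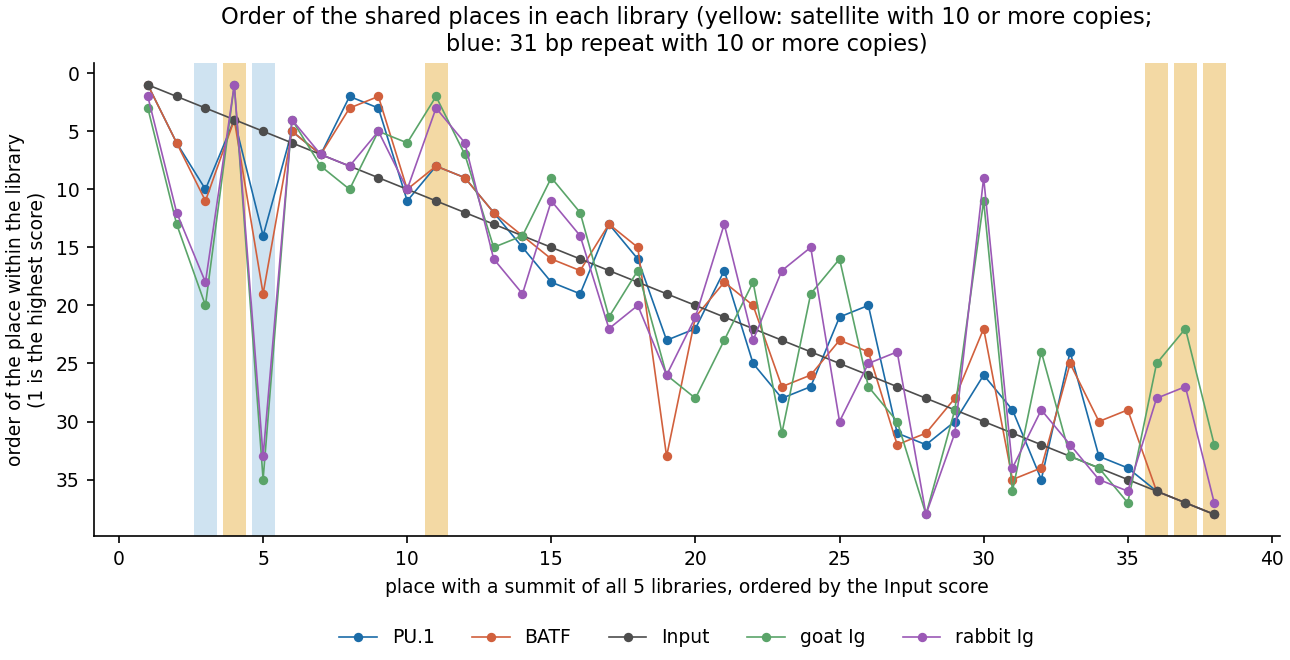
Order of the 38 places where all 5 libraries had a summit within each library (1 is its highest score), with the places set out along the horizontal axis by the Input score. Both 31 bp places (blue) stand below the Input line in all 4 antibody libraries, by more in the Ig libraries. Both Ig libraries stand above the line at the 5 satellite places with 10 or more copies (yellow) and far above it at a place on chrUn_GL456396 (30 in the Input, 11 in goat Ig, 9 in rabbit Ig).

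Satellite members with few copies were not the weak ones. PU.1 members in satellite windows with fewer than 10 copies (57 of 64) had a median score of 33.2, and the 7 with 10 or more a median of 15.3. In BATF the medians were 34.8 and 15.0, in the Input 27.0 and 4.91, in goat Ig 19.4 and 8.99 and in rabbit Ig 22.8 and 8.40. Windows with 10 or more copies were 10.9% of PU.1 satellite members (interval 4.51 to 21.2), 11.1% of BATF, 22.2% of the Input, 33.8% of goat Ig (22.6 to 46.6) and 31.1% of rabbit Ig (19.9 to 44.3). Most of these lay in 1 long tract of chrUn_JH584304, described next. It held 5 of the 7 in PU.1 and in BATF, 20 of 22 in goat Ig and 17 of 19 in rabbit Ig. Copy number and this tract therefore cannot be told apart.

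chrUn_JH584304, an unplaced contig of 114452 bases, showed the libraries apart from each other. It had 36 Input, 21 goat Ig, 18 rabbit Ig, 11 PU.1 and 7 BATF summits. A satellite tract runs from 67401 to 114400 and a short one from 60201 to 61000. In the long tract lay 20 goat Ig, 17 rabbit Ig, 19 Input, 5 PU.1 and 5 BATF summits. That was 8.85% of the goat Ig list (5.49 to 13.3), 7.59% of the rabbit Ig list (4.48 to 11.9) and 0.0559% of the PU.1 list. Within the lists, the median rank of the tract summits from the top was at 55.5% of the goat Ig list, 59.4% of rabbit Ig, 42.7% of the Input, 12.4% of PU.1 and 19.7% of BATF. The windows of the tract had a median of 366 copies at the Input summits, 164 of them on chromosomes. 11 places of this contig held the Input and both Ig libraries without PU.1 or BATF, and all 11 were satellite.

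In the remainder of the contig both Ig libraries had no summit, which allows up to 1.33% of the goat Ig list and 1.34% of the rabbit Ig list. The other lists, of 8947 PU.1, 4060 BATF and 25194 Input summits, had smaller shares there. A count of 0 is thus not shown to differ from them. PU.1 had 5 summits in this remainder, BATF 1 and the Input 16, and 18 of these 22 were within the pseudogene LOC100861749 (chrUn_JH584304:4567-52729). That was 81.8% of them (59.7 to 94.8), and the pseudogene makes up 72.3% of the contig outside the satellite tracts, so the summits were not shown to favour it. The only gene near a summit of all 5 libraries was Pisd-ps3, a transcribed pseudogene of phosphatidylserine decarboxylase on the minus strand (RefSeq, chrUn_JH584304:52674-59689). GENCODE M21 lists a protein-coding gene, AC149090.1, over nearly the same stretch. The shared place, chrUn_JH584304:60658-60687, lies 969 to 998 bp before the start of Pisd-ps3, in the short satellite tract. PU.1 scored 244 at this place, BATF 246, the Input 137, goat Ig 76.8 and rabbit Ig 95.4, all above every other summit of these libraries on the contig. The window of each of the 5 summits occurs once in the build.

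**Figure D5:**
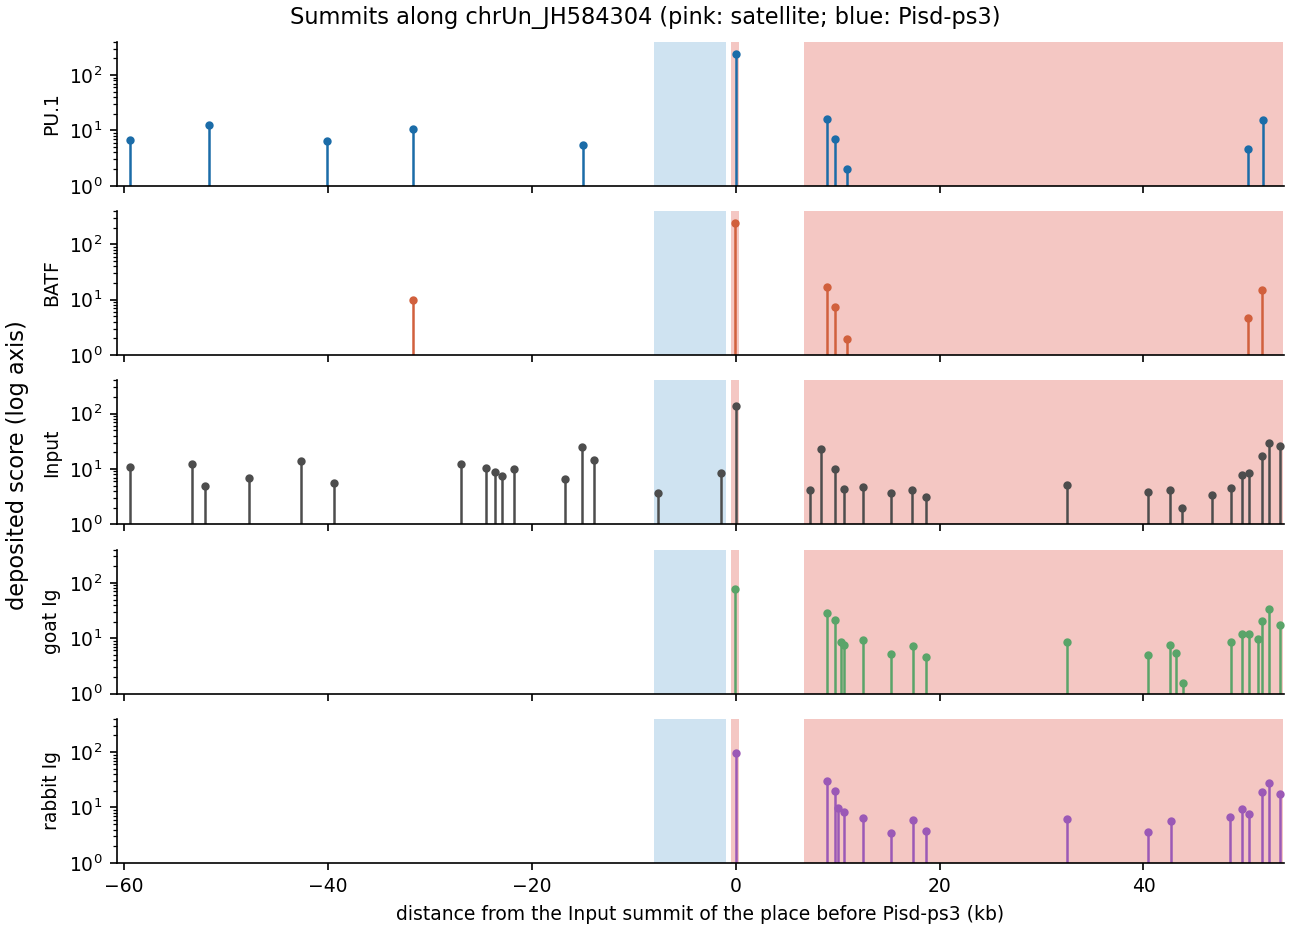
Deposited scores (log axis) of the summits of each library along chrUn_JH584304, as distance in kb from the Input summit before Pisd-ps3, with satellite tracts in pink and Pisd-ps3 in blue. All 5 libraries peak at 0, and goat and rabbit Ig, with lists of 226 and 224 summits, have no summit outside the pink tracts.

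Few members lay in genes. Outside chrM, 9 of 94 PU.1 summits (9.57%), 1 of 74 BATF summits, 37 of 212 Input summits (17.5%) and none of the 67 goat Ig (up to 4.48%) and 63 rabbit Ig summits (up to 4.76%) were inside a RefSeq gene, while genes cover 33.4% of these bases. Within 1000 bp of a summit RefSeq had 30 genes, of which 22 were near a single library, 6 near 2, 1 near 3 and 1, Pisd-ps3, near all 5. Csprs, the Sp100-rs component on chr1_GL456221_random, had 4 Input summits and 1 PU.1 summit inside it. Tmlhe, which encodes the first enzyme of carnitine synthesis, had 1 Input summit.

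On chrM the Input had 9 summits, PU.1 5, BATF 4 and both Ig libraries none, which allows up to 1.33% of the list of goat Ig and 1.34% of that of rabbit Ig. The Input had 0.0357% of its list there, PU.1 0.0559% and BATF 0.0985%, so the Ig libraries are not shown to differ. The highest chrM summit of each was in ND2, a subunit gene of respiratory complex I, where the Input scored 33.8 at position 4064, PU.1 33.8 at 4094 and BATF 15.4 at 4090. The second place with all 3 libraries spanned the end of ND5 and ND6, with the Input at 13372 (24.5), PU.1 at 13643 (20.7) and BATF at 13692 (10.0). In CYTB, the cytochrome b gene, PU.1 scored 4.76 at 14909 and the Input 21.6 at 14917. PU.1 and BATF also had summits at 4859 and 4899 in ND2, 795 and 835 bp from the nearest Input summit, with scores of 17.6 and 7.29. The 18 chrM summits formed 11 places, of which 5 held the Input alone. Of the 18 windows 10 had no copy on a chromosome at 90% identity and the others had 1 or 2. Parts of mitochondrial DNA are known to sit in the nuclear genome as well.

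Members without an Input summit within 500 bp were 17 in PU.1, 11 in BATF, 5 in goat Ig and 2 in rabbit Ig. The highest of those of PU.1 was at chrUn_GL456392 position 22738, with a score of 138 and the Input summit 526 bp away, just past the distance. The highest of those of the other 3 libraries were at the place at chrUn_JH584304:69605-69654, which held PU.1 (15.8), BATF (17.0), goat Ig (28.9) and rabbit Ig (29.9) and where the nearest Input summit was 562 to 611 bp away. Farther from the Input, the pair at chrUn_JH584304:29030-29042 had PU.1 at 10.5 and BATF at 9.76, with the Input 4668 and 4656 bp away.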

How the data were processed

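Chromatin from Th9 cells was sequenced after precipitation with PU.1, BATF, goat Ig or rabbit Ig antibodies and without precipitation (Input), 1 library each. According to the study's methods and the submitters' processing notes, reads were aligned to mm10 (Bowtie2) and peaks were called on the Nebula platform with FindPeaks after conversion with MACS. The deposited lists carry MACS2 names and hold, for each summit, a position 1 bp wide and a score, which the authors deposited without a definition. Caller options, the control library and the handling of multiply aligned reads are not given in the sources used here. Other antibodies of the study were not analysed here.

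Summits outside chr1 to chr19, chrX and chrY were kept, and their contigs were matched by name and length to GRCm38.p6 (RefSeq), with GENCODE M21 genes as a second annotation. Windows ran 100 bp to each side of a summit. Repeat classes came from blastn (BLAST 2.17.0, word size 7, bit score of at least 60) with units read from the reference. Their steps of 234, 31 and 21 bp were the most frequent best periods of at least 10 bp among members not yet matched, and each unit was taken around the Input summit where most bases equalled the base 1 step before. Copies were megablast hits (word size 24) of at least 90% identity over 90% of the window. Summits within 500 bp were co-located, and single linkage at 500 bp made places. Named sequences were those with summits of at least 3 libraries and, chosen after their values were seen, the contigs of the 21 bp repeat and that of Csprs, printed windows came from places with most libraries, and genes lay within 1000 bp. Functions were tested on simulated data (Python 3.11.15, numpy 2.4.6, pandas 2.3.3, scipy 1.17.1, pysam 0.24.0). The members, lists and alternatives were chosen with earlier results of these data known, and the repeat classes, score ranges, copy limit and motifs after the values were seen.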

Additional observations from a re-analysis of the deposited data

How the results depend on the processing

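No paired analysis was possible because each group is 1 library, and for the same reason no replicate could be left out. Of 174 alternative values, 123 stayed within the interval of the reported value, or within 1.5 times a reported count, and 51 moved. Leaving out chrM, joining summits within 500 bp, other window widths, bit scores of 40 or 80 (chosen after the data were seen) and other linkage distances for places kept all their values in this sense. With windows of 100 or 400 bp or bit scores of 40 or 80, no antibody member fell in the 21 bp repeat.

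The share of summits outside the chromosomes rose when weak summits were dropped. Above the median score of each list it was 2.1% for PU.1, 3.76% for BATF, 1.53% for the Input, 38.1% for goat Ig and 38.4% for rabbit Ig. With scores of at least 10 it was 13.5%, 15%, 5.76%, 38.1% and 38.4%.

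Co-location fell with a shorter distance, by construction. At 100 bp of the Input were 71.7% of PU.1, 74.4% of BATF, 76.1% of goat Ig and 79.4% of rabbit Ig members, at 200 bp 82.1% of goat Ig and 87.3% of rabbit Ig, and at 1000 bp 90.9% of PU.1, 93.6% of BATF and 98.5% of goat Ig. At 100 bp, 85.9% of BATF members were near PU.1, 77.6% of goat Ig near rabbit Ig (80.6% at 200 bp) and 82.5% of rabbit Ig near goat Ig. Also at 100 bp, 56.7% of goat Ig members were near PU.1 (56.7% at 200 bp) and 56.7% near BATF, 58.7% of rabbit Ig near PU.1 and 61.9% near BATF, and 32.1% of Input members near PU.1 (48% at 1000 bp). Exactly on an Input summit were 1.01% of PU.1, 3.85% of BATF, 4.48% of goat Ig and 3.17% of rabbit Ig, and exactly on that of the partner 3.03% of PU.1 and 3.85% of BATF, 2.99% of goat Ig and 3.17% of rabbit Ig. Exactly on PU.1 were 0% of goat Ig, 1.59% of rabbit Ig and 0.452% of Input members, exactly on BATF 1.49% of goat Ig and 1.59% of rabbit Ig, exactly on goat Ig 0% of PU.1 and 1.28% of BATF, and exactly on rabbit Ig 1.01% of PU.1, 1.28% of BATF and 0.905% of Input members. Above the median score of each list, 81.4% of goat Ig and 86% of rabbit Ig members were near PU.1 and 88.4% of rabbit Ig near BATF. On the chromosomes, under the same setting, these were 82.9%, 91.3% and 95.7%, and for Ig near a factor the intervals outside and on the chromosomes overlapped at 100, 200 and 1000 bp and above the median score. For Ig near the Input they overlapped at 100 and 200 bp and above the median score (goat Ig 93.0% and 80%, rabbit Ig 97.7% and 88.4%), and for Ig near the other Ig above the median score (goat Ig 90.7% and 80%, rabbit Ig 93.0% and 79.7%). In the other pairs they stayed apart at 100, 200 and 1000 bp and above the median score, as for PU.1 near the Input at 100 bp (71.7% and 22.7%). For summits on exactly the same base the intervals were not compared.

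Without read totals or replicates, a place missing from a list cannot be told from one too shallow to be called. Which reads the aligner gave to which copy of a repeat was not tested.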

Other observations

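With chrM left out, summits in no repeat class numbered 117 on 20 sequences. Of these 84 were in the Input, 26 in PU.1, 7 in BATF and none in an Ig library. Their windows were soft-masked over a median of 92.5% of the bases, had a median of 10 copies in the build, and in 14 cases a single one. The Input scores among them had a median of 6.23 and reached 26.3. Of the 27 Input summits of this kind with a score of 10 to 40, 13 lay within 500 bp of PU.1 (48.1%) and 4 within 500 bp of BATF (14.8%). None lay that close to Ig (up to 11.1%), which nearly restates that no Ig summit was of this kind.

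Tandem repetition of any period up to 400 bp was common among all members. At least 80% of the bases equalled the base at the best period before them in 31.3% of goat Ig, 28.6% of rabbit Ig, 22.2% of PU.1, 15.4% of BATF and 14.0% of Input windows, against 1.15% of all tiled windows.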
